A study of Mus musculus with 12 samples.

Results

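The chromosome 11 stretches described here are the 42 intervals on mouse chromosome 11 for which the study's files list coverage, among 532 such intervals in all. A stretch is a run of abutting lines in the deposited coverage files, and members were all chromosome 11 stretches of 360 bp or longer outside 2 narrow ranges of length (400 to 410 bp, and one that ends at 500 bp), a rule that left out 0 of the 42. They were 371 to 1076 bp long (median 373 bp). A cloverleaf search found at least 1 tRNA gene in 39 of them and 47 genes in all, and 3 stretches matched none. Names of tRNA genes are followed by the anticodon and are predictions.

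The data are chromatin immunoprecipitation with sequencing (ChIP-seq) of livers from male C57/BL6 mice aged 12 to 14 weeks. The mice were kept in cycles of 12 h of light, at first for 2 weeks with free feeding and then for 7 days with food in the dark phase only, and livers of 5 mice were taken at Zeitgeber time 2 h and of 5 more, named as the biological replicate, at 26 h. The 6 groups of 2 libraries were RPC1 and RPC4 (subunits of Pol III, RNA polymerase III), RPB2 (of Pol II, RNA polymerase II), 2 pairs of histone libraries, and input, which is chromatin without immunoprecipitation. The labels contradict each other for the histone libraries: those titled H3K4 carry an antibody entry of H3K36me3 and those titled H3K36 carry H3K4me3, so they are named after their titles. The labels tie no replicate number to a time and are silent on pooling of livers, so p-values measure only the spread between libraries, which may be technical. Whole liver was used, and fewer cells with an occupied gene cannot be told apart from less occupancy per cell.

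Pol III transcribes tRNA genes from a promoter inside the gene. The factor TFIIIC binds an A box and a B box in the transcribed part, TFIIIB is placed upstream of it, and Pol III is recruited there and stops at a run of T soon after the gene. H3K4me3 is a mark of nucleosomes beside active promoters, and Pol II is often found close to active tRNA genes. Many tRNA genes exist in several identical copies, so a gene's own sequence and its surroundings can be set apart.

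The following genes are printed because they hold the same tRNA in occupied and unoccupied stretches, or the strongest signals. Each is written 5′ to 3′ on the strand of the gene from the NCBIM37 (mm9) reference, and the capitals mark the 11 bases at the B box. The 5 Cys (GCA) genes lie between Psmb3 and Plxdc1, and the first 3 are identical.
Cys, chr11:97850237-97850308, minus strand: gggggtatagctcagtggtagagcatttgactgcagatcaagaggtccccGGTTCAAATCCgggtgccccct
Cys, chr11:97849560-97849631, minus strand: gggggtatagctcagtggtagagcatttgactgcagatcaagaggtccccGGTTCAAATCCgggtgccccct
Cys, chr11:97658386-97658457, plus strand: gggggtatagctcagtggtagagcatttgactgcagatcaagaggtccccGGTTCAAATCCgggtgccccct
Cys, chr11:97660220-97660291, minus strand: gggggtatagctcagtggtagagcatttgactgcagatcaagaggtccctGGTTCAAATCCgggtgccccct
Cys, chr11:97631143-97631214, minus strand: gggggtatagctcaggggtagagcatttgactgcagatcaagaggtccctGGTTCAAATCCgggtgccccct

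Of the 4 Trp (CCA) genes, the second printed below was nearly unoccupied, and the last pair are identical to each other.
Trp, chr11:61221418-61221489, minus strand: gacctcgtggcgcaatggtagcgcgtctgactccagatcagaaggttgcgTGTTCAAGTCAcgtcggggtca
Trp, chr11:62559517-62559588, minus strand: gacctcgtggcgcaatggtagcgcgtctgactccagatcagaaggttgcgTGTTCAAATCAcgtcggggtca
Trp, chr11:68855328-68855399, plus strand: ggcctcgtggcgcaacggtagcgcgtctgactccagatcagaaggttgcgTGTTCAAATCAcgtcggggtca
Trp, chr11:68876997-68877068, minus strand: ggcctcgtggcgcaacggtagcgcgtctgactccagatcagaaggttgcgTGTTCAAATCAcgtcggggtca

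Both Gln (TTG) genes are shown because the first had the most H3K4-titled signal and the second the least Pol III of all members.
Gln, chr11:95720486-95720557, minus strand: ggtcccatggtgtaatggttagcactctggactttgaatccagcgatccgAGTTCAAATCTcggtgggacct
Gln, chr11:86075670-86075741, plus strand: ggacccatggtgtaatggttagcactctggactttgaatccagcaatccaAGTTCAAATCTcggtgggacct

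The genes with the highest Pol III coverage over the gene itself were a Ser (GCT) gene and a Leu (CAA) gene, whose 23-nt intron is included. The third sequence is the middle 74 bp of an occupied stretch in which no cloverleaf was accepted, on the plus strand, with a B box motif in capitals.
Ser, chr11:68876544-68876625, minus strand: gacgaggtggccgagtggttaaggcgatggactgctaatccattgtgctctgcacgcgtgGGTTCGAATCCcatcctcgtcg
Leu, chr11:58115976-58116082, minus strand: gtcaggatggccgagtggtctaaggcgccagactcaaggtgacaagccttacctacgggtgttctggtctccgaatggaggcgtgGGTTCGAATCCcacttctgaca
Unmatched, chr11:48637230-48637303, plus strand: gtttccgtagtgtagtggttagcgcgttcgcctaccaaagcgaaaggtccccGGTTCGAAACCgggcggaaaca

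Values are coverage, the mean number of reads over each base of a stretch, and are thus per length. A read lying alone covers 76 bp. Divided by this length, the coverage in all 532 stretches came to 82276 to 160705 reads in the Pol III libraries, 13848 to 14779 for RPB2, 17033 to 26665 for the H3K4-titled, 1273 to 1754 for the H3K36-titled and 3365 to 3563 for the input libraries. A median member therefore held 351 to 644 reads in the Pol III libraries and about 5 in input (5.37 and 5.31). The library's full depth is not known, because only these stretches are listed. The 12 liver and other cell type genes that were to check the tissue label lay in 0 stretches, so these files give no such check.

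Pol III lay on most of the chromosome 11 stretches, and their coverage split into 2 ranges with no value between them. 32 members had a mean over the 4 Pol III libraries of 18.1 to 228.0 reads per base, and 10 had 0.524 to 6.30, against a median input coverage of 1.05. The 10 low members are at one gene each of Asp, Pro, Lys, Gln, Cys, Ala, Met and Trp and at 2 unmatched stretches. The 32 others are called occupied below.

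In the test of Pol III against input, 34 of 42 members were above input (81.0%) and 0 below, where 66.5% of all 532 stretches were above and 0% below. The test was limma on log2(scaled coverage + 0.350), with Benjamini-Hochberg adjusted p under 0.05, and each library was divided by its own coverage over 123 stretches of other chromosomes with the least Pol III. These 123 were chosen by the same Pol III libraries that were tested and not by input. The lack of members below input is therefore not independent of this scale. Of 453 stretches of the same lengths on other chromosomes 63.8% were above input. The scale decides this count. Dividing by file totals instead moved the median log2 fold of all stretches from 3.47 to -1.33 and that of the members from 6.44 to 1.48, and then 22 members were above and 10 below input, beside 18.8% of all stretches above and 52.6% below. The 22 members were also among the 34. Coverage as deposited gave 34 again (68% of all), and median-of-ratios scaling 26 above and 9 below (27.6% and 34.4% of all). Calls below are with the background scale unless file totals are named.

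**Figure D1:**
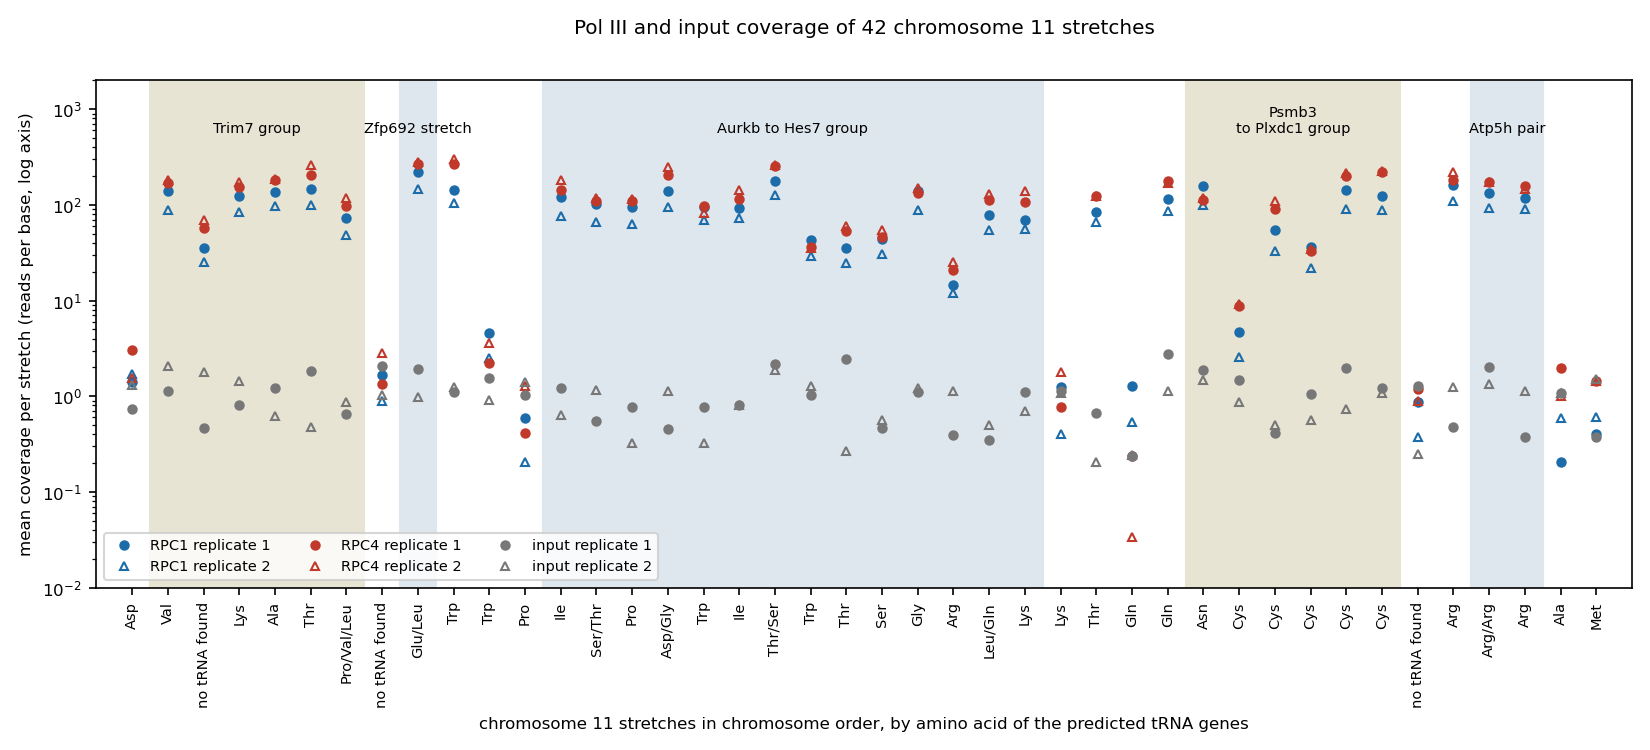
Mean coverage (reads per base, log axis) of the 42 chromosome 11 stretches in chromosome order for 2 RPC1, 2 RPC4 and 2 input libraries, with neighbouring groups shaded. The 32 occupied stretches have a mean Pol III coverage of 18.1 or more and the 10 low ones of 6.30 or less, of which all but the Asp, Trp and Cys genes overlap with input.

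The highest member held Glu (CTC) and Leu (CAA) genes at 58.12 Mb (chr11:58115529-58116232, intergenic, 4489 bp from the start of the zinc finger gene Zfp692). Its coverage was 220.7 and 145.5 in the RPC1 libraries, 268.6 and 277.5 in the RPC4 libraries and 1.95 and 0.984 in input, so that every Pol III library lay far above both input libraries. Its log2 fold was 7.21 (SE 0.38, limma adjusted p = 8.05e-10). Over the Leu gene alone the mean was 421.9, and over the Glu gene 221.8. It holds 9.07% of the members' summed Pol III coverage and ranks 6 among all 532 stretches.

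The next 4 were a Thr (AGT) and Ser (GCT) pair at 68.88 Mb with a mean of 205.9, a Trp gene at 61.22 Mb with 204.2, a Thr (TGT) gene at 48.67 Mb with 177.5 and an Asp (GTC) and Gly (TCC) pair at 68.85 Mb with 172.0. In the Thr and Ser pair the Ser gene carried most of the signal, with 484.9 over the gene against 72.98 over the Thr gene. The Trp gene had 144.0 and 104.1 in RPC1 and 264.5 and 304.3 in RPC4 libraries. Their log2 folds over input were 6.60, 7.18, 7.19 and 7.48 in that order (SE 0.32 to 0.52, limma adjusted p from 7.68e-10 to 1.4e-08). With file totals the Trp gene's fold was 2.17 and no longer passed (limma adjusted p = 0.154), while the other 4 of the top 5 still did.

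At the other end, the Gln (TTG) gene in an intron of 4632419I22Rik at 86.08 Mb had 1.29 and 0.538 in RPC1 and 0.238 and 0.0336 in RPC4 libraries, against 0.238 and 0.243 in input. A Pro (TGG) gene overlapping an exon of Myh8, a myosin heavy chain of skeletal muscle, had a mean of 0.620, below its input of 1.22. An unmatched stretch at 100.40 Mb had 0.830, an Ala (AGC) gene at 116.28 Mb 0.947 and a Met (CAT) gene at 121.83 Mb 0.968. A Lys (CTT) gene, 16024 bp from the start of the olfactory receptor gene Olfr401, followed with 1.05. An unmatched stretch in an exon of Cdkn2aipnl had 1.68, an Asp (GTC) gene at 7.77 Mb 1.92 and a Trp gene at 62.56 Mb 3.22. For these members, the ranges of the 4 Pol III and the 2 input libraries overlapped except at the Asp and Trp genes, where all 4 were above both inputs. The Asp gene did not pass (limma adjusted p = 0.246). The Trp gene was called with a log2 fold of 1.35 (SE 0.49, limma adjusted p = 0.0259). With file totals its direction turned (-3.48, limma adjusted p = 0.000125), and the call was lost without RPC1 replicate 1, RPC4 replicate 2 or input replicate 2 (1.17, 1.24 and 0.93).

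Members that lie close together were occupied together. Members under 500 kb apart form 18 local groups, of which 4 hold 2 or more stretches. All 28 stretches of those 4 groups were above input for Pol III, where 66.5% of all stretches were, and 27 of 28 had at least 10 reads per base. Of the 14 stretches that stand alone 6 were above input and 5 had 10 or more. With file totals 19 of the 28 and 3 of the 14 were above input, where 18.8% of all stretches were. Neighbouring stretches lie as little as 50 bp apart and DNA fragments are longer than that, so close members share part of their signal.

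The group at 48.63 to 48.67 Mb has 6 stretches with 7 genes over 38814 bp, around Trim41 and Trim7, which code for ubiquitin ligases, and Irgm1, a GTPase of innate immunity. Its Pol III coverage ran from 46.6 to 177.5 (median 138.6), and the group held 18.8% of the members' Pol III. Above input were 6 of 6 stretches (66.5% of all stretches), and 5 of 6 with file totals (18.8% of all stretches). The highest was the Thr (TGT) gene, with 145.7 and 100.0 in RPC1, 203.1 and 261.4 in RPC4 and 1.83 and 0.480 in input libraries. Val (CAC), Lys (CTT) and Ala (TGC) genes stood at 144.6, 132.6 and 150.7, and the last pair lie in an intron of Trim7. The lowest was the unmatched stretch printed above, with 35.1 and 25.3 in RPC1, 57.3 and 68.6 in RPC4 and 0.465 and 1.78 in input libraries. All 4 Pol III libraries were above both inputs there, and its bases at the B box are the same as in the Val genes of this group. A stretch with Pro, Val and Leu genes had 83.6, made of 94.5 over Pro (TGG), 254.0 over Val (AAC) and 44.4 over Leu (AAG).

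The group at 68.85 to 68.94 Mb is the largest, with 14 stretches and 18 genes in 88546 bp, and it held 38.9% of the members' Pol III. 14 of 14 were above input (66.5% of all stretches), and 8 of 14 with file totals (18.8% of all). Coverage ran from 18.1 to 205.9 (median 94.7). It falls into 3 blocks. The first, 3750 to 8571 bp from the start of Aurkb, a mitotic kinase, has Ile, Ser and Thr, Pro, Asp and Gly, and Trp stretches at 130.6, 98.8, 95.8, 172.0 and 85.6. The second, 1837 to 3012 bp from 9330160F10Rik, has Ile, Thr and Ser, and Trp stretches at 106.1, 205.9 and 36.1.

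The third block spans Hes7, a repressor of the segmentation clock, and Aloxe3, a lipoxygenase of the skin barrier. Its Thr, Ser, Gly, Arg, Leu and Gln, and Lys stretches stood at 43.2, 43.9, 127.1, 18.1, 93.3 and 93.5. The lowest of the group was Arg (TCT), with a 14-nt intron, in an exon of Hes7. It had 14.7 and 12.0 in RPC1, 20.7 and 25.0 in RPC4 and 0.393 and 1.12 in input libraries, so the libraries did not overlap with input (log2 fold 4.36, SE 0.55, limma adjusted p = 5.02e-06). With file totals its fold was -0.41 and did not pass. In the Leu and Gln stretch the Leu (TAG) gene carried 265.0 and the Gln (CTG) gene 34.4 over the gene.

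The group at 97.56 to 97.85 Mb has an Asn (GTT) gene 877 bp from the start of Psmb3, which codes for a proteasome subunit, and the 5 Cys genes. It held 11.8% of the members' Pol III, with coverage from 6.30 to 165.6. Above input were 6 of 6 stretches (66.5% of all stretches), and 4 of 6 with file totals (18.8% of all stretches). The Asn gene had 156.9 and 100.7 in RPC1 and 113.0 and 118.0 in RPC4 libraries. The Cys pair beside Plxdc1 had means of 161.7 and 165.6. The Cys genes near Lasp1, which codes for an actin-binding protein, had 71.9 at 1857 bp and 31.5 at 23 bp from its start.

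The lowest Cys gene, 3273 bp from the splicing factor gene Cwc25, had 4.65 and 2.58 in RPC1 and 8.86 and 9.12 in RPC4 libraries against 1.48 and 0.871 in input. It was above input (log2 fold 2.21, SE 0.48, limma adjusted p = 0.0008), but with file totals its fold was -2.69. On other chromosomes, stretches of the same lengths with only Cys genes numbered 51, of which 2 were above input and 1 was over 50 reads per base, and their median was 1.05. On chromosome 11, 5 of 5 were above input and 3 over 50. These 2 sets were not matched by sequence. The 3 identical Cys genes printed first have 1 identical copy off chromosome 11. Over the gene that copy had 137.1, within their range of 122.8 to 271.8.

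The pair of stretches at 115.3 Mb, with 3 Arg genes near Atp5h, which codes for a subunit of the ATP synthase, had 143.6 and 127.6 and held 8.34% of the members' Pol III. Occupied stretches that stand alone were, besides those at 58.12 and 61.22 Mb, Arg (CCG) at 106.87 Mb with 168.6, Gln (TTG) at 95.72 Mb with 136.4 and Thr (CGT) at 79.52 Mb with 99.3. This Gln gene overlaps an exon of the annotated gene Gm11527 and this Thr gene an exon of Gm11205. Their nearest starts of a protein-coding gene are 15563 and 43823 bp away.

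Compared with other chromosomes, the members' median Pol III coverage was 94.7 against 13.4. The share over 50 reads per base was 61.9% against 28.7%, and the share under 10 was 23.8% against 47.2%. Chromosome 11 held 7.89% of stretches and 17.6% to 18.7% of the coverage in each Pol III library, but 7.05% and 7.48% in the input libraries. On the scaled log2 scale the median of the members exceeded that of other chromosomes by 2.96 and 2.81 in the RPC1 libraries, 2.59 and 2.87 in the RPC4 libraries and only 0.06 and 0.04 in the input libraries. The difference, Pol III less input, was 2.76, with all 4 Pol III libraries above both inputs (exact permutation test over libraries, two-sided p = 0.133, the smallest that 4 against 2 libraries allow).

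Chromosome 11 was not alone at this level. Among the 15 chromosomes with at least 10 such stretches it ranked 3 by median coverage, after chromosome 2 (129.8, 10 stretches) and chromosome 7 (104.4, 13 stretches), and 4 by the share over 50. Among the 7 with at least 20 it ranked 1 by both and 2 by the share above input. Chromosome 13 had a median of 20.3 and 77.6% above input. Chromosome 6, whose stretches are mostly Cys genes, had 1.18 and 20.6%. Of the 100 stretches with the most Pol III, 21 were members.

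The gap was smaller, but present, when kinds of tRNA were matched in part. With the other chromosomes weighted to the members' mix of amino acids, 38.5% of their stretches were over 50, against 61.9% of members, and 67.0% were above input, against 81.0%. Here the 3 unmatched members formed a class of their own, as did 6 with genes of several amino acids. Those members were thus not matched by kind of tRNA. Limited to stretches with a predicted tRNA gene, a comparison chosen after the data were seen, the shares over 50 were 66.7% of 39 and 33.8% of 337. Without chromosomes 6 and 8 (the latter with the 5S rRNA genes), the log2 difference was 2.39.

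**Figure D2:**
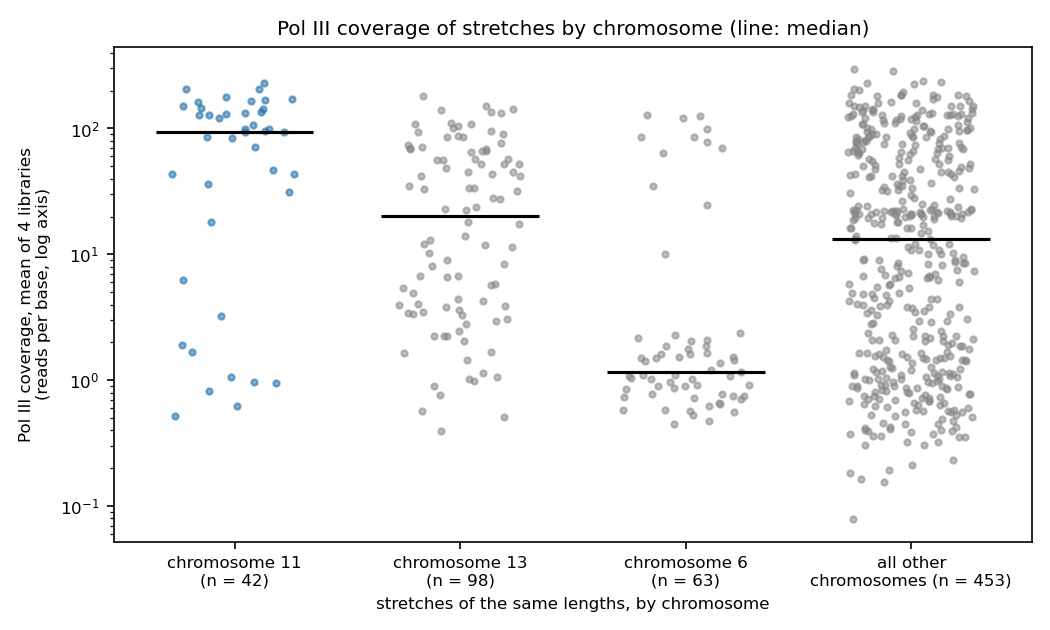
Pol III coverage (mean of 4 libraries, reads per base, log axis) of each stretch on chromosome 11, chromosome 13, chromosome 6 and all chromosomes other than 11, with a line at the median. The last set (453 stretches) includes those of chromosomes 13 and 6. The medians are 94.7, 20.3, 1.18 and 13.4.

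Identical gene copies on chromosome 11 differed in Pol III. Of the 3 identical Cys genes, the pair beside Plxdc1 had 249.6 and 271.8 reads per base over the gene and the copy near Lasp1 122.8. In each of the 4 libraries the copy near Lasp1 was lower than both others, also over the 150 bp upstream, with 37.8 and 19.5 in RPC1 against 168.2 and 99.3 at one copy and 70.3 and 58.5 at the other. The Cys gene nearest to Lasp1 carries C50T, counted from 1 at the 5′ end of the first Cys gene printed, and had 40.9. The lowest carries T16G and C50T and had 8.99. Neither change lies in the B box. The A box was not located in these genes or in the Trp genes below, so whether a change lies in it was not tested.

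The 4 Trp genes also differ little in sequence. Relative to the gene at 61.22 Mb, which had 371.4 over the gene, the gene at 62.56 Mb carries only G58A, inside the B box, and had 4.78. The pair at 68.86 and 68.88 Mb carries G58A as well, with A2G and T16C, and had 155.8 and 64.4. At 62.56 Mb the 150 bp upstream were low too, with 2.06 to 6.30 in the 4 libraries, against 107.3 to 200.7 at 61.22 Mb. No base of these Trp stretches had fractional coverage, a sign that reads were shared out over repeated sites.

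The Asp gene at 7.77 Mb is identical to the one in the Asp and Gly stretch, and had 4.60 against 126.2 over the gene. Here 56.5% of bases in the low stretch were fractional, against 5.63% in the Asp and Gly stretch, so reads in the low stretch may be shared with other sites. The low Gln (TTG) gene differs from the occupied one by T3A, G45A and G50A (0.792 against 220.6), the low Lys (CTT) gene by 11 substitutions from the one in Trim7 (1.23 against 210.1) and the low Pro (TGG) gene by 9 from the one at 48.67 Mb (1.09 against 94.5). Of the 42 members, 26 had no fractional base.

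Across the 47 genes, a run of 4 or more T (TTTT) within 40 bp after the gene was present in 43 (91.5%), where 85.9% of all 410 predicted genes had one. By Pol III over the gene, it was present in 38 of 39 genes at 10 reads per base or more and in 5 of 8 below. The B box motif GGTTCGANNCC (N is any base), searched on the gene's strand at the B box, was present in 27 of 47 (57.4%, against 56.6% of all), in 26 of 39 and in 1 of 8, the Asp gene. The occupied Cys and Trp genes lack this motif, and so do the low ones.

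CpG dinucleotides were sparse in and around the low members, and the same held on other chromosomes. In the stretch plus 300 bp on each side, the 32 occupied members had a median of 39.7 per kb and the 10 low ones 9.24. For stretches of the same lengths on other chromosomes the medians were 40.6 with Pol III at 10 or more and 12.3 below 10. The 8 members with 14 or fewer CpG all had Pol III of 6.30 or less. The low members outside this range were the Asp gene at 7.77 Mb (31.9 per kb) and the Trp gene at 62.56 Mb (34.9 per kb). Among the 32 occupied members CpG and Pol III were only loosely related (Spearman's rho 0.24, across stretches, which share libraries).

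**Figure D3:**
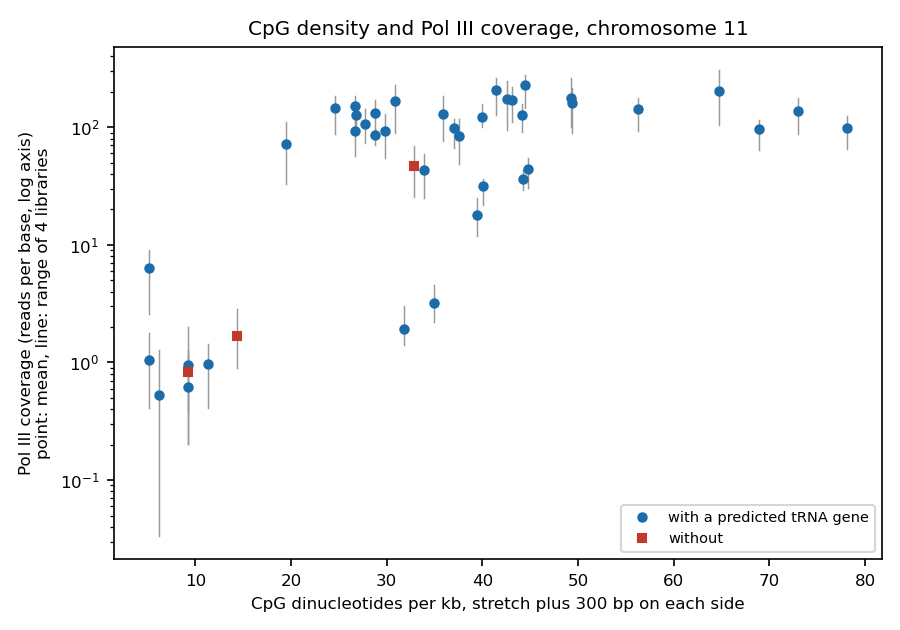
CpG dinucleotides per kb of each chromosome 11 stretch with 300 bp on each side against its Pol III coverage (log axis, point: mean, line: range of 4 libraries). All 8 stretches with up to 14.4 CpG per kb have a mean of 6.30 or less, and 2 stretches above 30 per kb are low as well.

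Members lay at a median of 4541 bp from the nearest start of a protein-coding gene, against 19661 bp for stretches on other chromosomes. Without chromosomes 6 and 8 the latter was 13128 bp. The short distance was not particular to chromosome 11. The median was 4278.5 bp on chromosome 14 (12 stretches) and 4399 bp on chromosome 12 (5 stretches). On the others with at least 10 stretches it was higher than on chromosome 11, from 5019 bp (chromosome 7) to 73586 bp (chromosome 6). Most members, 30 of 42, lay 1 to 10 kb away, and 25 of these were above input for Pol III. Above input were also 3 of 3 members under 1 kb and 6 of 9 over 10 kb away. On other chromosomes 321 of 453 stretches were over 10 kb away, and the shares above input were 95.3% under 1 kb, 73.03% at 1 to 10 kb and 57.0% beyond.

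With the background scale, Pol II was above input on nearly all members that held Pol III. RPB2 was above input in 31 of 42 members and below in 0, where 38% of all stretches were above and 0.188% below (33.6% above among those on other chromosomes). On other chromosomes RPB2 was above input in 141 of 239 stretches of the same lengths with Pol III at 10 reads per base or more. Of the 32 occupied members 30 were above input. The exceptions were Arg (TCT) in Hes7, with 1.77 and 0.393, and the Trp gene at 68.88 Mb, with 1.70 and 2.24. Of the 10 low members, 1 was called, the Gln gene at 86.08 Mb, which lies in an intron and had 2.27 and 1.29. With file totals 6 members were above and 4 below (6.02% and 23.1% of all stretches), and with median-of-ratios scaling 12 and 1 (8.27% and 2.63% of all).

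The median RPB2 coverage was 5.76 in occupied and 1.07 in low members. The highest was Arg (CCG) at 106.87 Mb, 13325 bp from Kpna2, which codes for an importin, with 30.9 and 34.1 against 0.477 and 1.26 in input (log2 fold 5.36, SE 0.42, limma adjusted p = 9.41e-07). Most of it lay upstream of the gene, with 64.6 and 75.1 over the 150 bp before the gene, 14.1 and 14.5 over the gene and 5.41 and 2.61 after it. Next came Gln (TTG) at 95.72 Mb with 24.3 and 28.5 (log2 fold 4.12, SE 0.55, limma adjusted p = 4.99e-05), where the gene had 34.5 and 33.4, the upstream flank 24.1 and 31.4 and the downstream flank 19.6 and 23.3, and the Arg (CCT) pair with 17.1 and 16.6. Among the members above input for Pol III, RPB2 was lowest at the Trp gene at 62.56 Mb (0.747 and 0.817), Arg (TCT) and the Cys gene near Cwc25 (1.68 and 0.849), all near their input.

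The members' RPB2 median exceeded that of other chromosomes by 1.23 and 1.22 on the log2 scale in the 2 libraries. Less input, the difference was 1.18 (exact permutation test over libraries, two-sided p = 0.333, the smallest that 2 against 2 allow). Among chromosomes with at least 10 stretches of these lengths, the median RPB2 coverage was 4.07 on chromosome 11. It was higher on chromosomes 14 (7.39), 7 (5.83), 2 (4.59) and 1 (4.41) and lower on the rest.

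The H3K4-titled signal was above input in 33 of 42 members and below in 1, where 61.1% of all stretches were above and 6.2% below (58.5% above among those on other chromosomes). These libraries had the least coverage in the background stretches, which enlarges their folds. As deposited, 27 members were above and 6 below (34.4% and 29.5% of all stretches), and with file totals 11 and 12 (12.2% and 57% of all). Median-of-ratios scaling gave 19 and 8 (22.9% and 32.1% of all). The median coverage was 9.71 in occupied and 0.224 in low members. Coverage was 0 at 3 members in each library.

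The highest value was at Gln (TTG) at 95.72 Mb, which overlaps an exon of Gm11527. It had 31.5 and 60.5 against 2.74 and 1.12 in input (log2 fold 7.73, SE 0.55, limma adjusted p = 1.67e-08). Next were Pro (CGG) in the Aurkb block with 27.5 and 42.7 (log2 fold 8.73, SE 0.51, limma adjusted p = 3.51e-09) and a Cys gene beside Plxdc1 (chr11:97850087-97850458) with 23.04 and 37.6. Both libraries lay well above both inputs at these 3 members.

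A pair of strongly occupied genes had almost no H3K4-titled signal. The Cys gene 1857 bp from Lasp1 (chr11:97658236-97658607), with Pol III at 71.9, had 0.101 and 0, below its input of 0.409 and 0.505. The Ile (AAT) gene at chr11:68875672-68876045, with Pol III at 106.1, had 0.547 and 0.392, also below its input of 0.818 and 0.813. The background scale nevertheless put the Ile gene above input (log2 fold 2.18, SE 0.55, limma adjusted p = 0.003), whereas coverage as deposited gave -0.63 and file totals -3.01. The Thr and Ser stretch 50 bp further on had 9.84 and 15.4. The identical Ile copy near Aurkb had 8.84 and 12.3 at a Pol III of 130.6. In the Pol III libraries 20.7% of bases were fractional in the first Ile stretch and 20.5% in the copy near Aurkb. Reads may thus be shared between Ile copies. The low Cys gene near Cwc25 had 0.204 and 0.409.

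The members' H3K4-titled median exceeded that of other chromosomes by 2.94 and 2.42 on the log2 scale in the 2 libraries and by 2.63 less input (exact permutation test over libraries, two-sided p = 0.333, the smallest possible). The median H3K4-titled coverage was 5.96 on chromosome 11. Among chromosomes with at least 10 stretches of these lengths it was higher on chromosomes 14 (20.3) and 1 (6.5) and lower on the rest. Over all 42 members Spearman's rho was 0.77 between Pol III and RPB2, 0.71 between Pol III and H3K4-titled and 0.62 between RPB2 and H3K4-titled coverage. Within the 32 occupied members these were 0.53, 0.39 and 0.27. Pol III and input had a rho of 0.52 over the same 32, and the 2 input libraries 0.11 with each other. These are descriptions across stretches that share libraries; the part of input coverage in them was not tested.

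**Figure D4:**
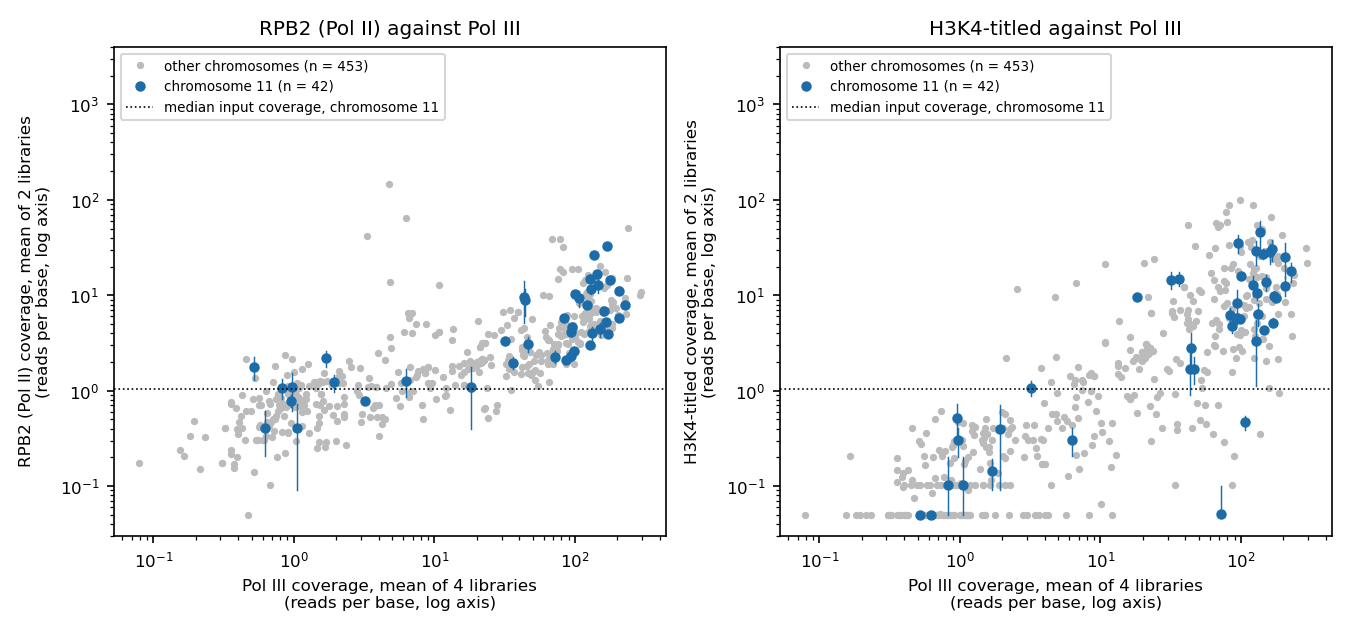
RPB2 (left) and H3K4-titled coverage (right) against Pol III coverage, in reads per base on log axes, for 42 chromosome 11 stretches (points: mean of 2 libraries, line: both libraries) and 453 on other chromosomes, with values under 0.05 drawn at 0.05. Occupied members lie at an RPB2 median of 5.76 and low ones at 1.07, and in the right plot the Ile and Cys genes stand out below the input line at a Pol III of 106.1 and 71.9.

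The signals had different shapes along the gene. In 24 occupied stretches with 1 gene, RPC4 was higher over the gene than over both 150 bp flanks in 24 of 24 in each library, and RPC1 in 21 of 24. RPC1 was higher upstream than downstream in 20 and 19 of 24, with medians of 125.1 and 86.1 against 58.3 and 42.5. RPC4 was higher upstream in 9 and 3 of 24. RPB2 had medians of 6.14 and 5.11 upstream, 11.5 and 9.82 over the gene and 4.53 and 4.03 downstream.

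The H3K4-titled signal had medians of 10.2 and 12.5 upstream, 2.66 and 4.58 over the gene and 2.18 and 6.64 downstream. It was lower over the gene than over both flanks in 7 and 9 of 24 stretches and higher than over both in 2 and 1. It was on either side in different members. At Arg (TCG) at 115.27 Mb the mean of both libraries was 66.7 upstream and 1.19 downstream, and at the Cys gene chr11:97850087-97850458 it was 2.30 upstream and 68.5 downstream.

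**Figure D5:**
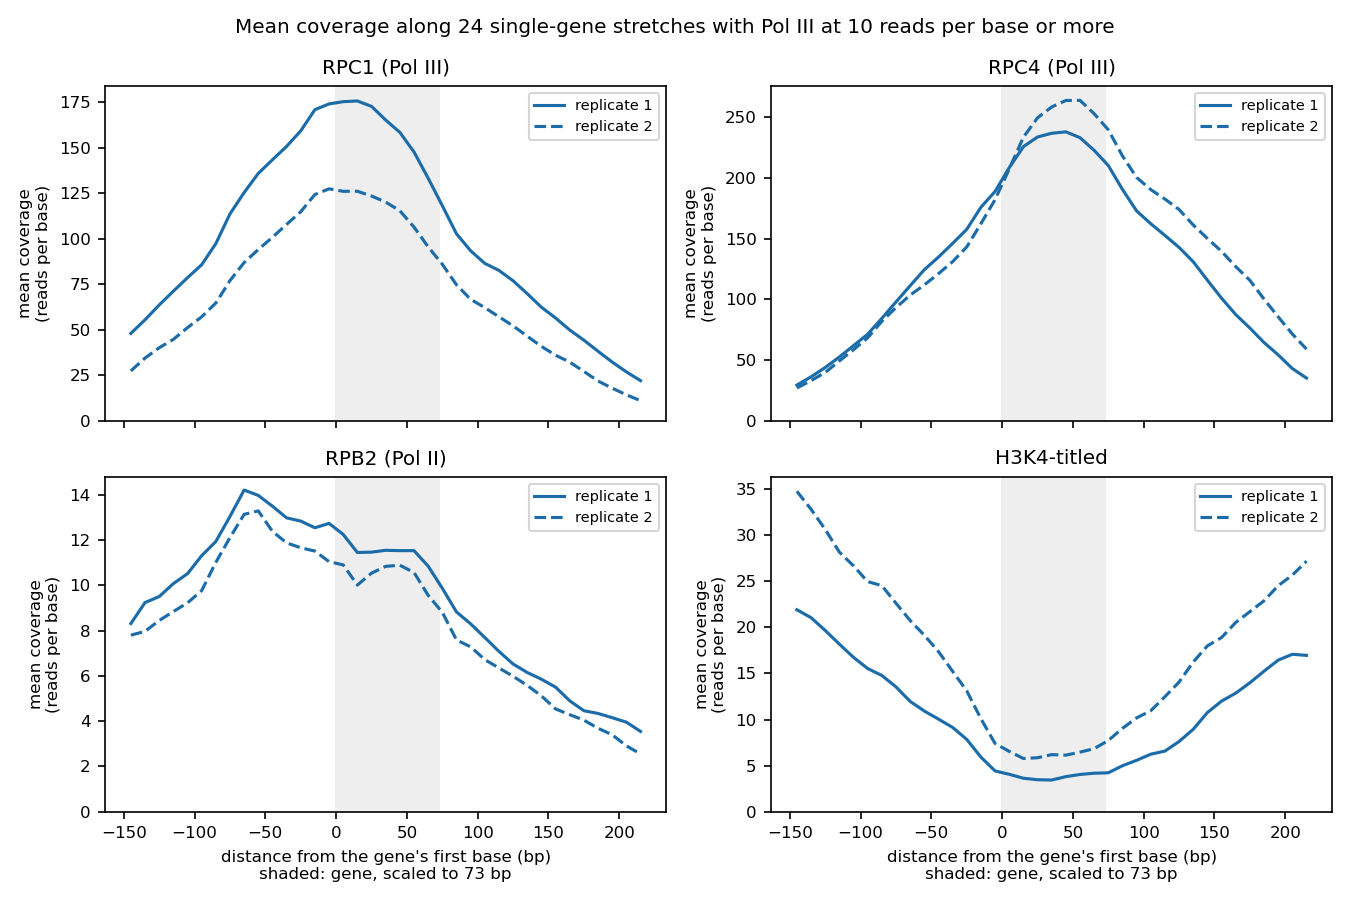
Mean coverage (reads per base) of 24 occupied single-gene stretches by distance from the first base of the gene (bp, gene shaded and scaled to 73 bp), 1 line per library. RPC1 leans upstream and RPC4 peaks over the gene, RPB2 is spread upstream and over the gene, and the mean H3K4-titled coverage dips over the gene, which lay below both flanks in 7 and 9 of the 24 stretches.

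The H3K36-titled libraries were near background, with 1 of 42 members above input and 4 below, where 2.63% of all stretches were above and 6.2% below. With file totals 2 were above and 10 below (3.01% and 20.3% of all), and with median-of-ratios scaling 5 and 6 (6.58% and 11.1%). As deposited, 26 members were below (63.9% of all), so the count below rests on the scale. The member above input was the unmatched stretch in an exon of Cdkn2aipnl at 51.79 Mb, with 18.2 and 9.90 against 2.05 and 1.04 in input (log2 fold 4.53, SE 0.56, limma adjusted p = 0.000406). Its Pol III coverage of 1.68 did not differ from input beyond the spread (limma adjusted p = 0.747). Among members above input for Pol III the highest H3K36-titled values were 1.92 and 0.406 at Thr (AGT) near Hes7, 0.933 and 0.508 at the Cys gene near Cwc25 and 1.02 and 0.408 at Lys (CTT) in Trim7. The lowest were 0 in both libraries at Val (CAC) at 48.63 Mb and at the Cys gene 1857 bp from Lasp1, and 0.0014 and 0.0007 at Ala (TGC) in Trim7.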

How the data were processed

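ChIP-seq coverage of 12 liver libraries was used. Per the submitters' processing notes, reads were placed on mm9. Coverage per base is the unit of the deposited values, a signal whose totals differ between files and which shows no scaling by the authors. The aligner is not given in the sources used here. Abutting lines were joined into stretches, and 1 interval on the X chromosome, listed with differing ends (5 versions) and not alike in all files, was left out. Printed ends are inclusive. Genes came from a cloverleaf search (at least 18 of 21 stem pairs) on the NCBIM37 reference and neighbours from the GENCODE annotation of that build.

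Each library was divided by its trimmed mean (10% trimmed) over the 123 stretches off chromosome 11 that had the lowest 25% of Pol III. This anchor takes those stretches as unenriched in every library. limma 3.58.1 (R 4.3.3) was fitted once to all 12 libraries and 532 stretches, with a mean-variance trend, 6 residual degrees of freedom, a pseudocount of 0.350 (the 0.05 quantile of nonzero values) and no filter. The fit was also run on simulated data in which the unenriched stretches were known, which cannot test the choice of the anchor. Groups follow the titles. Replicate numbers did not pair the libraries.

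The members and lists were chosen with earlier results of these data known. Named members are the 5 highest and 5 lowest in Pol III, the highest and lowest of each local group, the 3 highest and 3 lowest in RPB2, H3K4-titled and H3K36-titled coverage among members above input for Pol III, and members under 5 reads per base of Pol III. Other stretches named were chosen after their values were seen. Figures were drawn with matplotlib 3.10.9 in Python 3.11.15. Alternatives were other scales, pseudocounts, anchors, filters, stretch limits, merged regions, a replicate term and leaving out single libraries.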

Additional observations from a re-analysis of the deposited data

How the results depend on the processing

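The counts of members above input rest on the scale, because the full depth of the libraries is not known. With file totals, 22 members were above input for Pol III, 6 for RPB2, 11 for H3K4-titled and 2 for H3K36-titled libraries, and with median-of-ratios scaling 26, 12, 19 and 5. The H3K36-titled count was 2 with an anchor of the lowest 50%. Merging stretches under 1000 bp apart left 31 member regions of 442, of which 23, 22, 22 and 1 were above input. The shares above input among all 442 regions were not counted. Leaving out single libraries gave 33 to 34, 26 to 28, 32 to 35 and 1 to 2. With a replicate block the counts stayed at 34, 31, 33 and 1; same-numbered libraries did not deviate together (median correlation 0.006, 1 of 15 pairs over 0.1). The other alternatives to these counts kept them within 1.5 times.

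The excess of chromosome 11 over other chromosomes kept its direction in each alternative tried. From means of log2 values it was 1.87 for Pol III, 1.09 for RPB2 and 1.91 for H3K4-titled libraries, and among stretches with a predicted tRNA gene, added after seeing the data, 3.04, 1.47 and 3.38. Without chromosomes 6 and 8 it was 2.39 for Pol III and 0.91 for RPB2. With the outer 100 bp left out it was 1.49 for RPB2 and 2.06 for H3K4-titled libraries, and with 2 times and 0.5 times the pseudocount 1.09 and 1.22 for RPB2. Without single libraries it was 2.71 to 2.83, 1.17 to 1.19 and 2.37 to 2.89.

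With file totals the direction turned at 4 called members for Pol III, 5 for RPB2 and 8 for H3K4-titled signal, with median-of-ratios scaling at 2, 0 and 5, and with coverage as deposited at 0, 0 and 3. Among the members whose folds are given, log2 folds turned with file totals at the Trp gene at 62.56 Mb (-3.48), the Cys gene near Cwc25 (-2.69), Arg (TCT) (-0.41) and, for H3K4-titled signal, the Ile gene (-3.01). With median-of-ratios scaling they turned at the Trp (-2.28), Cys (-1.50) and Ile (-1.52) genes, and with coverage as deposited at the Ile gene (-0.63). At the Trp gene the Pol III fold without single libraries ran from 0.93 to 1.78, and it no longer passed without RPC1 replicate 1 (1.17), RPC4 replicate 2 (1.24) or input replicate 2 (0.93). The cause of these shifts was not tested. Input held about 5 reads at a median member, so small folds are not detectable at this depth.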
